A study of Bos taurus with 24 samples.

Results

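TNFAIP6, NR4A1, JUN, CITED2, GADD45A and GADD45B were taken as a group of ovulation and immediate early genes, chosen by the gene symbols in the array platform's annotation. These 6 genes, of 9026 genes tested, were carried by 7 of the 17418 features of the array, with 1 feature for each gene except GADD45B, which had 2. The RNA was total RNA from cattle, taken from the largest follicle in each of 16 heifers, 8 to 12 mm across. The groups were the follicles themselves, known by the identifiers 8, 26, 27, 31, 33, 46, 861, C10, C12, C13, C22, C26, C32, C35, H893 and J980, with no treatment, age or stage given in the labels. Each of 24 arrays set 2 follicles against each other in the dyes Cy5 and Cy3, and each follicle was on 3 arrays. Each animal gave 1 follicle, so the SEs, intervals and F tests below hold array error only and compare these 16 RNA samples. The permutation p-values of the correlations come instead from reordering the follicle levels, and the array error of each level is not carried into them.

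The preovulatory surge of luteinising hormone starts a burst of transcription in granulosa cells of the follicle. Immediate early genes such as NR4A1 and JUN answer within a short time without new protein synthesis, and genes of the cumulus matrix such as TNFAIP6 follow. CITED2, GADD45A and GADD45B are regulators that many cell types induce after hormone, growth factor or stress signals.

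Levels are estimates from the whole loop of arrays, on the log2 scale and relative to the mean of the 16 follicles, each with the SE of its fit. The deposited log ratios were read as Cy5 over Cy3 in base 2. The labels name the Cy5 follicle first, which makes that direction likely, though nothing states it; if the ratios ran the other way, all levels would change sign. Natural logs are also possible, in which case each fold given below would be larger. A log ratio holds no absolute level, so no gene can be called present or absent, and no gene's level can be set against another's. A lower level can come from fewer cells of a type or from less RNA per cell, and these cannot be told apart in whole follicles.

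The loop had a weak point that bears on every level. It consisted of 2 sides of 8 follicles, with 11 arrays inside each side and 2 arrays between them, 1 of C10 with 26 and 1 of C26 with 33. Side 1 held 31, 33, 46, 861, C10, C12, C13 and H893, and side 2 held 8, 26, 27, C22, C26, C32, C35 and J980. The mean difference between the sides had an SE of 0.896 times the SD of array error, and 2.09 times without either joining array. Side 1 minus side 2 was 0.09 ± 0.45 (SE) for TNFAIP6, and 1.85 without the array of C10 and 26 or -1.67 without that of C26 and 33. The difference was -0.26 ± 0.20 for NR4A1, with -1.09 and 0.57 in the same order of arrays left out. For JUN it was 0.07 ± 0.19, with -0.85 and 0.97, and for CITED2 -0.08 ± 0.19, with -0.97 and 0.80. GADD45A and GADD45B moved less, with differences of -0.12 ± 0.16 and 0.07 ± 0.21, and with -0.16 and -0.08, and 0.25 and -0.11, without a joining array. No gene of the 6 differed between the sides by more than 2 SE. Levels inside one side are therefore better tied together than levels across sides.

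**Figure D1:**
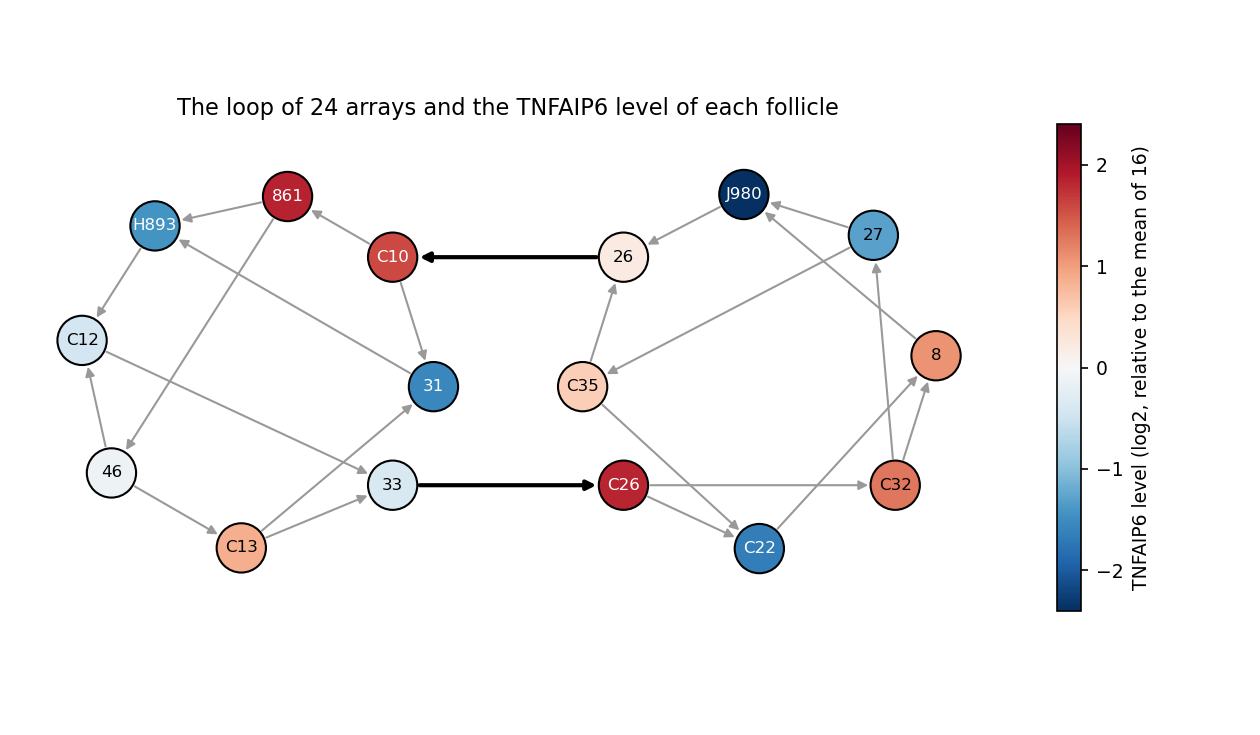
The loop of 24 arrays, drawn as arrows from the Cy3 to the Cy5 follicle, with the 16 follicles coloured by their TNFAIP6 level (log2, relative to the mean of 16). Side 1 is on the left and side 2 on the right, joined by the 2 arrays in black, and both sides hold high and low follicles, from 1.84 in 861 to -2.40 in J980.

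All 6 genes differed between follicles by limma's moderated F test with Benjamini-Hochberg adjustment over all genes at 0.05, where 11.8% of all genes tested did. The genes had been proposed with results of these data in view, so the count is a description. Of their 7 features 6 passed, against 12.2% of all features tested. Their adjusted p was 3.18e-04 for TNFAIP6, 0.00254 for GADD45A, 0.00342 for CITED2, 0.0102 for NR4A1, 0.0147 for JUN and 0.0282 for GADD45B. The SD of the 16 levels was 1.37 for TNFAIP6, the sixth largest of 9026 genes, and 0.34 to 0.50 for the other 5. The median SD was 0.29 over the 1061 genes that passed and 0.17 over all genes tested. The calls of TNFAIP6, GADD45A and CITED2 held in each of the alternatives tried, and those of NR4A1, JUN and GADD45B were lost in at least 1, as given with each gene below.

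TNFAIP6 encodes a secreted protein that binds hyaluronan and helps to cross-link the matrix of the expanding cumulus. Its level was 1.84 in 861, 1.83 in C26, 1.59 in C10, 1.28 in C32, 1.07 in 8, 0.87 in C13, 0.59 in C35 and 0.21 in 26, with an SE of 0.34 to 0.38. It was -0.11 in 46, -0.38 in 33, -0.44 in C12, -1.30 in 27, -1.44 in H893, -1.56 in 31, -1.66 in C22 and -2.40 in J980. The follicles from 861 to 26 lay above the mean and those from 46 to J980 below it. None of the 15 pairs of neighbours in the order differed by more than 2 SE, a count that sorting keeps low since neighbours lie closest. Over all 120 pairs of follicles, 76 did. Follicle 861 lay 4.23 above J980 (95% interval 2.85 to 5.62), an 18.8-fold difference if the logs are base 2 (interval 7.19 to 49.2). The pair was picked as the highest and lowest of the estimated levels, which tends to make the difference too large. The interval is that of a pair fixed in advance and does not allow for this choice. The same holds for the intervals between the highest and lowest follicles of the other genes below. Follicles 861 and J980 are on different sides of the loop. Their difference was 6.60 without the array of C10 and 26 and 3.08 without that of C26 and 33. Each array of J980 gave a large ratio, -3.08 over 8, -1.64 over 27, and 2.42 for 26 over J980, so all 3 placed J980 below its partner. The arrays of C22 did likewise, with -3.54 over C26, -2.12 over C35, and 2.78 for 8 over C22. Follicle 861 was above H893 and 46, with -3.17 for H893 over 861 and -2.0 for 46 over 861, and close to C10 at 0.30. Without J980 and its arrays the gene still passed (adjusted p = 0.00218). Array error made up 7.08% of the variance of the levels, against a median of 19.5% over genes that passed and 74.5% over all genes.

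The matrix and ovulation genes that were measured besides TNFAIP6 varied less than TNFAIP6. The median SD of their levels was 0.22 for the matrix list and 0.21 for the ovulation list, against 0.17 over all genes tested. A list of ovulation and cumulus expansion held 33 genes, of which only 13 were measured, genes of the group included. Whether the listed genes that were not measured followed TNFAIP6 was not tested. Of the 11 other genes measured 1 passed, against 11.8% of all genes. That gene was TIMP1, an inhibitor of metalloproteinases, at 0.54 ± 0.19 in 46 and -0.58 ± 0.19 in H893 (adjusted p = 0.0297). PTGES, a prostaglandin E synthase, and CTSL, a lysosomal protease, had the next smallest p and did not pass (adjusted p = 0.0743 and 0.083). In a list of 24 hyaluronan matrix genes, 15 of them measured, 4 of 14 others passed (28.6%, against 11.8% of all genes). CD44, a hyaluronan receptor, ranged from 0.53 ± 0.10 in C26 to -0.41 ± 0.11 in 861, and fibronectin (FN1) from 0.34 ± 0.08 in C26 to -0.42 ± 0.08 in C13. AMBP, whose precursor includes a subunit of inter-alpha-trypsin inhibitors, ranged from 0.27 ± 0.11 in 33 to -0.53 ± 0.12 in C12, and HYAL1, a hyaluronidase, also passed. The median r of these measured genes with TNFAIP6 over the 16 follicles was 0.09 for the ovulation list and -0.13 for the matrix list, beside -0.01 over all genes. Among genes that passed, those most like TNFAIP6 by Pearson r over the 16 levels were ARFGAP3, a GTPase-activating protein of the Golgi (r = 0.740), IFI30, a lysosomal thiol reductase (r = 0.711), and the splicing factor SRSF4 (r = 0.669). ISYNA1, the inositol phosphate synthase, was the most opposed (r = -0.711), at 0.99 in J980 and -0.69 in C26. These 16 points share the arrays of the loop, and the values are descriptions.

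NR4A1 encodes an orphan nuclear receptor that is induced within the early response and acts on steroidogenic genes. It was highest in 33 (0.83 ± 0.15) and C22 (0.68 ± 0.16), followed by 0.24 in 27, 0.23 in J980, 0.17 in C35, 0.08 in 8, 0.0076 in 46 and -0.0030 in C32. It was -0.02 in 31, -0.10 in C10, -0.17 in 26, -0.18 in C26, -0.33 in 861, -0.37 in C12, -0.41 in C13 and -0.64 ± 0.17 in H893. Follicles 33 and C22 headed the order, with C22 0.43 ± 0.22 (SE) above 27. No neighbours differed by more than 2 SE, while 44 of 120 pairs did. Follicle 33 lay 1.47 above H893 (95% interval 1.01 to 1.93), a 2.77-fold difference in base 2. The arrays of 33 gave 1.41 over C12 and 1.39 over C13, and C26 over 33 gave -0.76, so each placed 33 above its partner. For C22 the ratios were 1.21 over C26 and 0.34 over C35, with -0.53 for 8 over C22. The array of J980 and 27 had no value, which left those follicles with 2 arrays each. The call was lost without moderation of the variances (adjusted p = 0.0609) and held without J980 (adjusted p = 0.0129). In a list of the NR4A group and partner receptors, 0 of 9 other genes passed, where 11.8% of all genes did. The smallest adjusted p was 0.0688 for NR2F2, followed by NR5A2 (0.0925) and NR2F1 (0.113).

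JUN encodes a subunit of the AP-1 transcription factor. It was 0.99 ± 0.37 in H893, 0.57 ± 0.16 in J980, 0.51 in 33, 0.51 in 861, 0.21 in C10, 0.08 in 26, 0.05 in C22 and -0.0021 in 31. It was -0.02 in 8, -0.07 in 27, -0.19 in 46, -0.20 in C26, -0.24 in C32, -0.44 in C35, -0.77 in C13 and -0.99 ± 0.24 in C12. No neighbours differed by more than 2 SE and 55 of 120 pairs did, with C12 and C13 at the low end. H893 lay 1.99 above C12 (95% interval 0.77 to 3.20), but JUN had values on 21 arrays, and H893 rested on 1 array, the array with 861. Follicle 861 had 2 arrays, that one and the array with C10. The levels of H893 and 861 were thus both tied to the rest by the array of 861 and C10 alone. J980, the follicle next below H893, had all 3 of its arrays. They gave -0.02 over 8, 0.08 over 27 and -1.01 for 26 over J980 before the dye term was taken off. JUN carried a strong dye bias, with a dye term of -0.64 ± 0.07 and 17 of its 21 array values below 0. The dye terms of the other 5 genes lay between 0.01 and 0.13. Without a dye term in the model JUN did not pass (adjusted p = 0.751), nor without moderation (0.104), without J980 (0.0606), or without either of 2 arrays of follicle 33 (0.0586 without that with C12 and 0.0511 without that with C13).

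**Figure D2:**
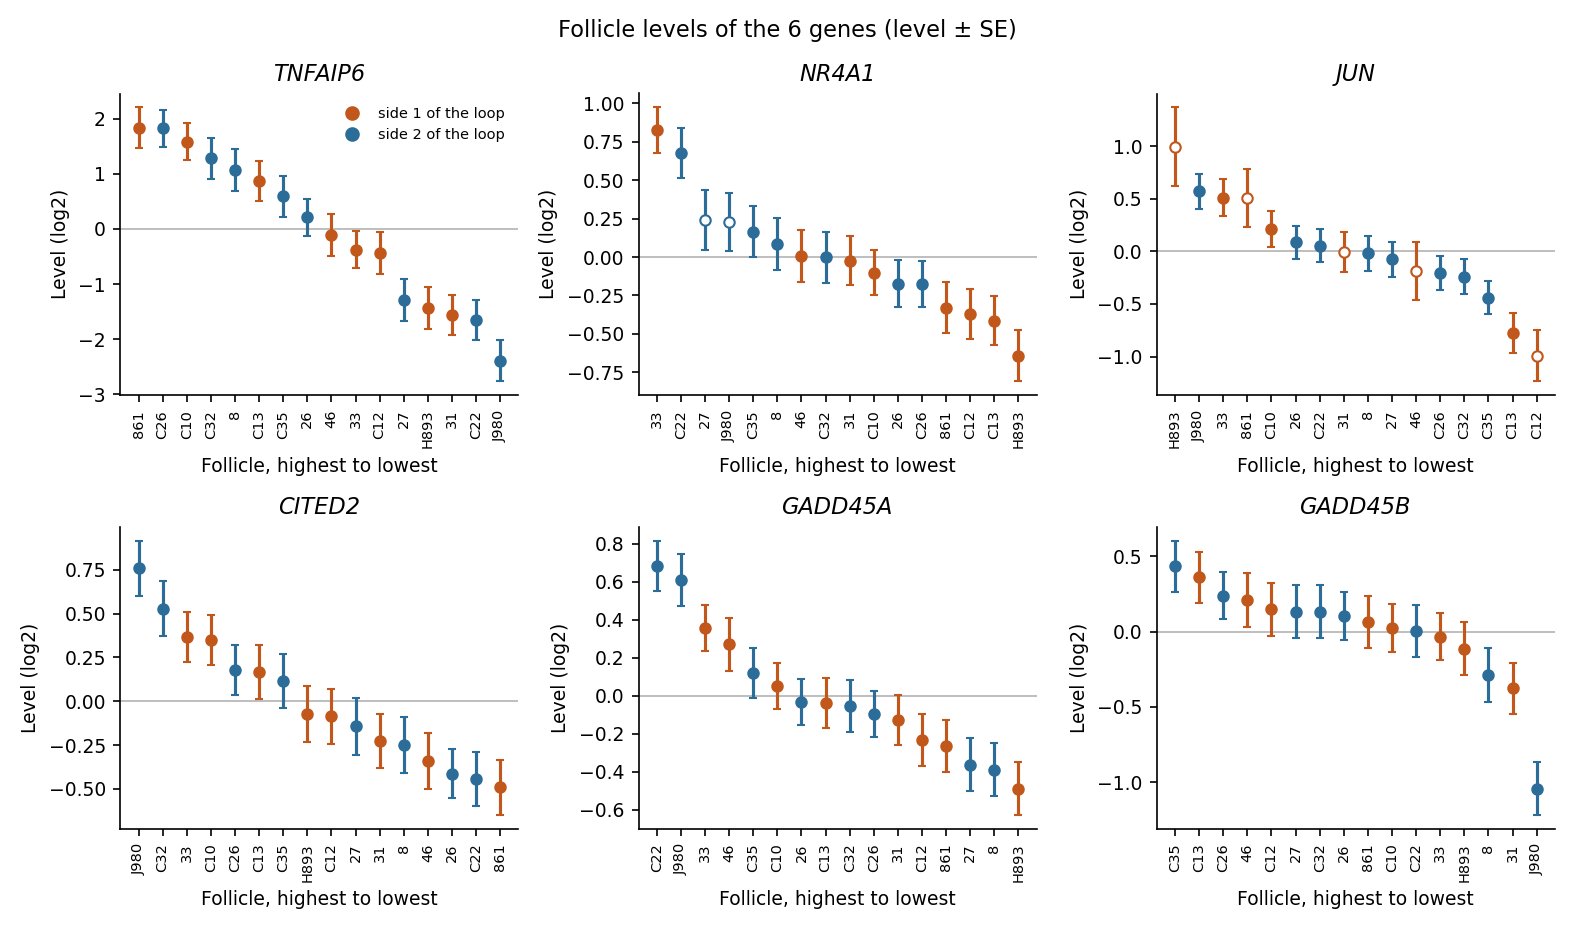
Levels of the 6 genes in the 16 follicles (log2, relative to the mean of 16; level ± SE of the fit), ordered from highest to lowest in each panel, with colours for the 2 sides of the loop and open points for follicles with fewer than 3 arrays. TNFAIP6 spans 4.23, the other 5 genes span 1.17 to 1.99, and GADD45B has a single low follicle, J980 at -1.04.

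CITED2 encodes a coregulator that binds CBP and p300 and limits the action of hypoxia-inducible factor. It was 0.76 ± 0.16 in J980, 0.53 ± 0.16 in C32, 0.37 in 33, 0.35 in C10, 0.18 in C26, 0.17 in C13, 0.11 in C35 and -0.07 in H893. It was -0.09 in C12, -0.14 in 27, -0.23 in 31, -0.25 in 8, -0.34 in 46, -0.41 in 26, -0.44 in C22 and -0.49 ± 0.16 in 861. No neighbours differed by more than 2 SE, and 56 of 120 pairs did. J980, the lowest follicle for TNFAIP6, was the highest here, 1.25 above 861 (95% interval 0.66 to 1.83), a 2.38-fold difference in base 2. This pair too crosses the sides, and the difference was 2.44 without the array of C10 and 26 and 0.67 without that of C26 and 33. Its arrays gave 1.0 over 8, 0.86 over 27, and -1.26 for 26 over J980. Without J980 the gene still passed (adjusted p = 0.0379).

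In a list of CITED2 partners and hypoxia genes 7 of 24 other genes passed, against 11.8% of all genes. ENO1 and LDHA, enzymes of glycolysis and hypoxia targets, were at 0.39 ± 0.09 in 861 and -0.75 ± 0.09 in J980, and at 0.54 ± 0.16 in 31 and -1.43 ± 0.16 in J980. EGLN1, the oxygen-sensing hydroxylase of HIF, went the other way and was highest in J980 (0.67 ± 0.08) and lowest in C10 (-0.23 ± 0.07). The median r of the list with CITED2 was -0.18, and -0.15 without the level of J980. Genes most like CITED2 were THAP11, a zinc finger regulator (r = 0.776), DEPP1, a FOXO target (r = 0.764), and QARS1, a tRNA synthetase (r = 0.746), all highest in J980. MRPL18, a mitochondrial ribosomal protein, was the most opposed (r = -0.827, and -0.801 without J980). Of 17 mitotic markers, 10 passed (58.8%, against 11.8% of all genes). Their median r with CITED2 was -0.51, or -0.28 without J980, beside -0.0018 over all other genes. Their mean level was lowest in J980 (-0.47). The part of dividing cells in the CITED2 levels was not tested.

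GADD45A and GADD45B encode small proteins of growth arrest and stress that act on cyclin-dependent kinases and on upstream kinases of p38 and JNK. GADD45A was 0.68 ± 0.13 in C22, 0.61 ± 0.14 in J980, 0.36 in 33, 0.27 in 46, 0.12 in C35, 0.05 in C10, -0.03 in 26 and -0.04 in C13. It was -0.06 in C32, -0.09 in C26, -0.13 in 31, -0.23 in C12, -0.27 in 861, -0.36 in 27, -0.39 in 8 and -0.49 ± 0.14 in H893. C22 and J980 stood at the top, no neighbours differed by more than 2 SE, and 52 of 120 pairs did. C22 lay 1.17 above H893 (95% interval 0.66 to 1.68), a 2.25-fold difference in base 2, across the sides, and 1.21 or 1.13 above it without a joining array. The arrays of C22 gave 0.79 over C26 and 0.46 over C35, with -1.17 for 8 over C22. Those of J980 gave 0.97 over 8 and 0.78 over 27, with -0.88 for 26 over J980, so all 6 arrays placed C22 or J980 above the partner. Without J980 the gene still passed (adjusted p = 0.00201).

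GADD45B was 0.43 ± 0.17 in C35, 0.36 in C13, 0.24 in C26, 0.21 in 46, 0.15 in C12, 0.13 in 27, 0.13 in C32 and 0.10 in 26. It was 0.06 in 861, 0.02 in C10, 0.0041 in C22, -0.03 in 33, -0.11 in H893, -0.29 in 8, -0.38 in 31 and -1.04 ± 0.17 in J980. J980 stood apart at the low end, 0.67 ± 0.29 (SE) below 31, the 1 pair of neighbours beyond 2 SE among those of all 6 genes. C35 lay 1.48 above J980 (95% interval 1.03 to 1.92), and 30 of 120 pairs differed by more than 2 SE. This was the least secure of the 6 calls. Leaving out 1 array at a time ended it in 15 of 24 fits (adjusted p from 3.92e-04 to 0.139, the highest without the array of 26 and J980). It also ended without the dye term (0.117), without moderation (0.109) and with feature 32_2_2 in place of the mean (0.134). The other feature, 5_6_16, passed alone among all features (adjusted p = 4.25e-04). The call held without J980 and its arrays (0.0236).

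The 2 features of GADD45B differed. Feature 5_6_16 passed among all features (adjusted p = 4.25e-04) and feature 32_2_2 did not (adjusted p = 0.137), with an SD of array error of 0.14 and 0.41. Both were lowest in J980, at -0.82 ± 0.11 for 5_6_16 and -1.26 ± 0.31 for 32_2_2. On the arrays of J980, 5_6_16 gave -0.89 over 8, -0.78 over 27, and 0.57 for 26 over J980, and each put J980 below its partner. Feature 32_2_2 gave -1.97 over 27 and 2.12 for 26 over J980, but 0.45 over 8, so its arrays did not agree on J980. Across the 24 arrays the ratios of the features had r = 0.318, and -0.016 over the 21 arrays without J980. Across the 16 levels r was 0.456 and rho 0.138, and r was 0.0085 without J980. GADD45B levels outside J980 therefore differ with the feature that is read.

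**Figure D3:**
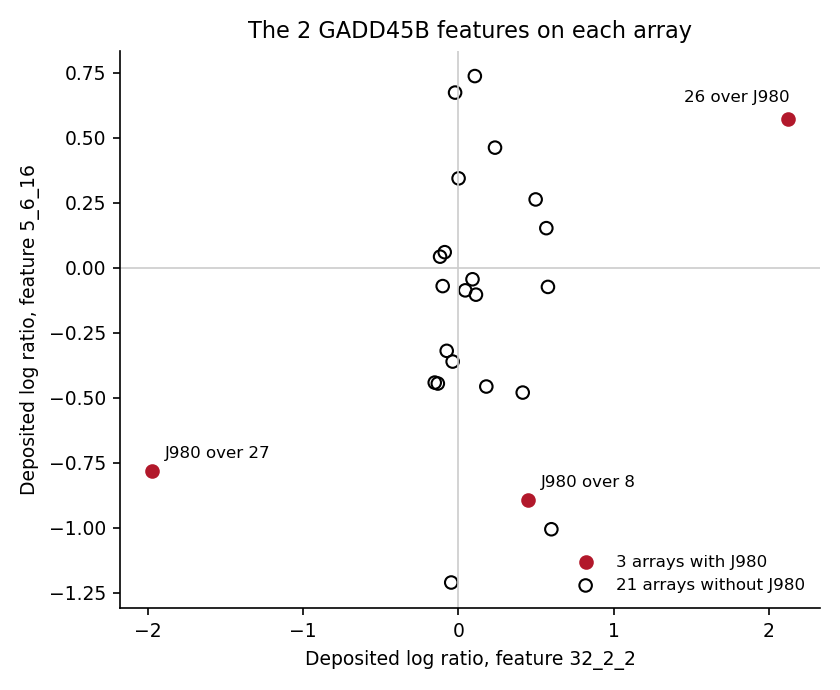
Deposited log ratio (Cy5 over Cy3) of the 2 GADD45B features on each of the 24 arrays, with the 3 arrays of follicle J980 in red. Feature 32_2_2 reached -1.97 and 2.12 on 2 of those arrays, and over the other 21 arrays the features had r = -0.016.

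In the list of GADD45, p53 and growth arrest, 3 of 18 others passed, against 11.8% of all genes, and the median r of the list was 0.06 with GADD45A and -0.0048 with GADD45B. The 3 were BTG2, an antiproliferative early gene (0.67 ± 0.12 in 33 and -0.54 ± 0.14 in C12), the stress factor DDIT3 and the replication clamp PCNA. DDIT3 ranged from 0.36 ± 0.10 in 46 to -0.45 ± 0.10 in J980, and PCNA from 0.60 ± 0.17 in 31 to -0.66 ± 0.18 in J980. CDKN1A, the cyclin-dependent kinase inhibitor p21, did not pass (adjusted p = 0.0581). Of 17 stress-activated MAP kinases and their activators 0 passed, against 11.8% of all genes. The smallest adjusted p were 0.221 for TAB1, 0.255 for MAP3K5 and 0.449 for TAB2. The gene most like GADD45A was CEBPD, a C/EBP transcription factor (r = 0.910, and 0.882 without J980), at 0.61 ± 0.12 in J980, 0.57 ± 0.12 in C22 and -0.57 ± 0.13 in H893. CRISPLD1, a secreted cysteine-rich protein, and PNPT1, a mitochondrial exonuclease, followed (r = 0.735 and 0.721), and MGARP, a mitochondrial protein, was the most opposed (r = -0.774), at 0.89 in 8 and -1.58 in C22. For GADD45B the nearest were OCIAD1, an endosomal and mitochondrial protein (r = 0.860), the translation factor EIF5B (r = 0.856) and the ribosomal protein RPL27A (r = 0.846), with 0.588, 0.693 and 0.504 without J980. PABPC4, a poly(A)-binding protein, was the most opposed (r = -0.795, and -0.279 without J980).

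Some of the other immediate early genes had levels like those of NR4A1. Of 47 such genes measured besides the 6, in 2 lists, 19 passed (40.4%, against 11.8% of all genes). The median r of the 47 with NR4A1 was 0.39, beside a median near 0 (-0.00086) over all other genes, and 14 of them (29.8%) had an r over 0.5, against 5.54% of all other genes. For GADD45A the median was 0.25, and 10 of the 47 had an r over 0.5 (21.3%, against 1.74%). For JUN the median was 0.02 and none of the 47 had an r over 0.5 (2.16% of all other genes did). The medians were 0.09 for CITED2, -0.02 for GADD45B and -0.09 for TNFAIP6. Of the 19 that passed, 6 were highest in 33 and 4 in C22, 52.6% together, where 13.8% of all other genes that passed were highest in either. Among the 19, r with NR4A1 reached down to -0.10 for IER5, an early gene named here as the lowest. Over all 47 it reached -0.594 for FOSL2 and -0.585 for SOCS3, which did not pass the F test (adjusted p = 0.218 and 0.737). FOS and EGR1 did not pass either (adjusted p = 0.683 and 0.305), with r of -0.07 and 0.45 with NR4A1. These are descriptions of lists that were drawn up with earlier results known.

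By name, the genes most like NR4A1 were FOSB, an AP-1 subunit (r = 0.834), CCN2, the matricellular protein CTGF (r = 0.829), and NFIL3, a basic leucine zipper factor (r = 0.793). FOSB was 0.89 ± 0.10 in C22, 0.66 ± 0.10 in 33, -0.53 ± 0.11 in H893 and -0.54 ± 0.11 in C12. CCN2 was 0.71 ± 0.08 in C22, 0.58 ± 0.08 in 33 and -0.71 ± 0.09 in H893. NFIL3 was 0.56 ± 0.11 in 33 and -0.50 ± 0.12 in H893, but only 0.08 ± 0.12 in C22. SEMA5B, a semaphorin, was the most opposed (r = -0.609). MAFF, a small MAF factor, was highest in C22 (0.71 ± 0.10), CCN1, a relative of CCN2, in 33 (1.47 ± 0.14), and TRIB2, a pseudokinase, in C32 (0.63 ± 0.15), with its lowest level in J980 (-1.41 ± 0.15). Of the AP-1 and ATF family 4 of 14 others passed (28.6%, against 11.8% of all genes). They were FOSB, MAFF, JUNB and ATF4, and JUNB was highest in C22 (0.54 ± 0.14) and lowest in C12 (-0.52 ± 0.14). JUN, of the same family list, had an r of 0.02 with FOSB, 0.08 with MAFF, 0.40 with JUNB and -0.08 with ATF4. The genes most like JUN were ANK3, an ankyrin (r = 0.591), EPB41L2, a membrane skeleton protein (r = 0.573), and the uncharacterised LOC515169 (r = 0.572), and EVA1A, an autophagy regulator, was the most opposed (r = -0.760).

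**Figure D4:**
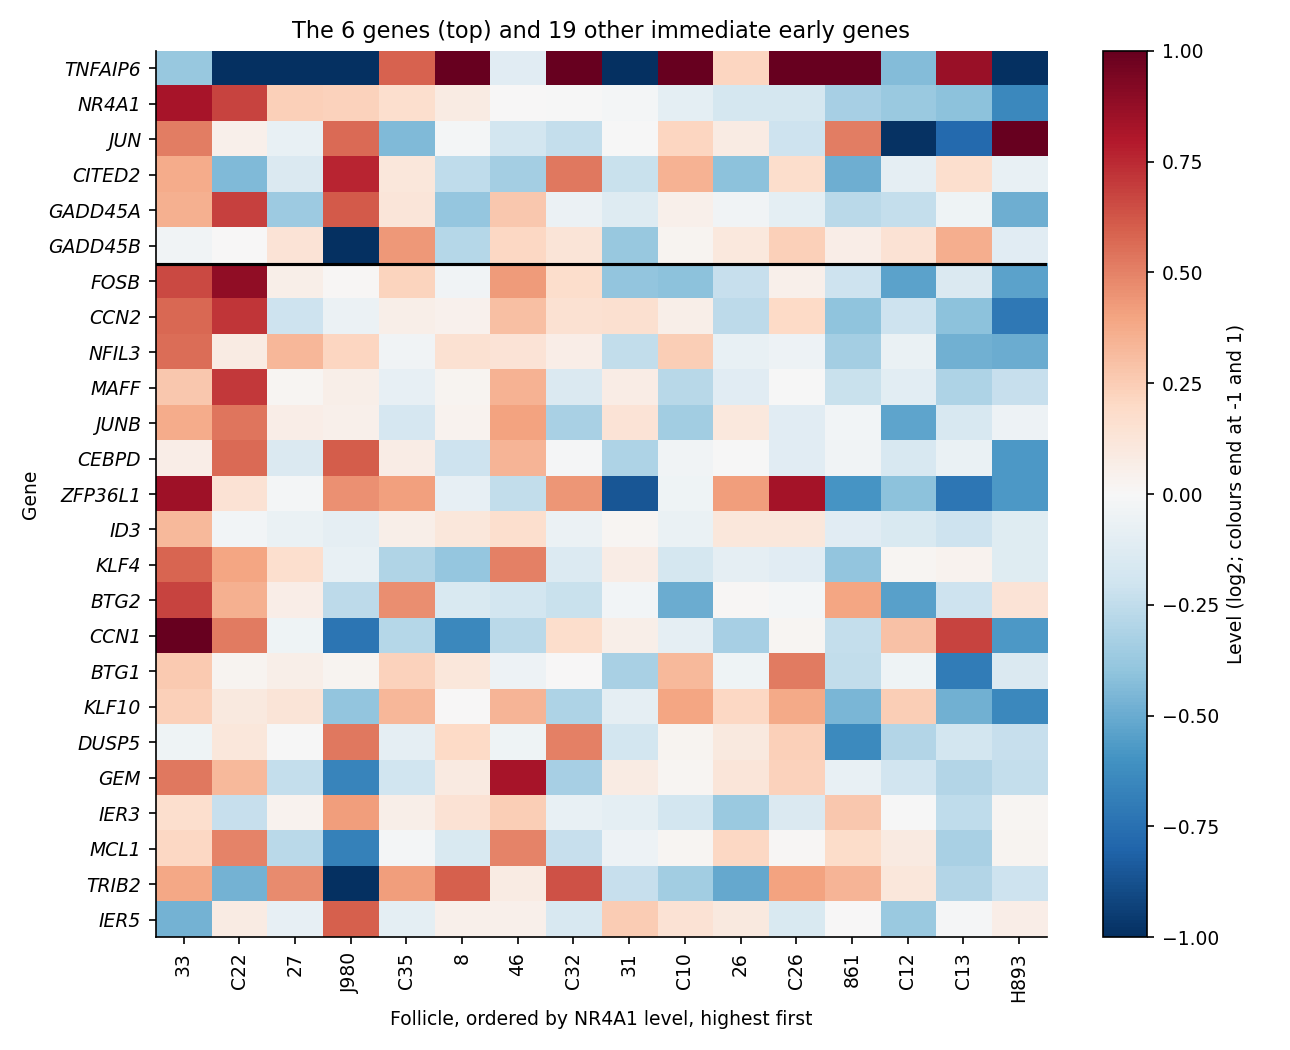
Levels (log2, relative to the mean of 16; colours end at -1 and 1) of the 6 genes above the line and, below it, the 19 other immediate early genes that passed the F test, ordered by their r with NR4A1, in the follicles ordered by NR4A1. FOSB, the top row below the line (r = 0.834), was 0.89 in C22 and 0.66 in 33, NFIL3 was 0.08 in C22, and IER5, the bottom row, had r = -0.10.

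Whether the 6 genes moved together was asked of their 15 pairs, by the r of Pearson and the rho of Spearman over the 16 levels, with two-sided permutation tests. By r 0 pairs passed after Benjamini-Hochberg adjustment and 3 had an unadjusted p under 0.05; by rho 1 passed and 2 had an unadjusted p under 0.05. Of the 15 values of r, 8 were positive and 7 negative, with a median of 0.000875. A common order of follicles over the 6 genes was not detectable at this number of follicles.

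The highest r was that of NR4A1 with GADD45A, at 0.679 (permutation p = 0.0037, adjusted 0.0555), with rho = 0.538 (permutation p = 0.0331, adjusted 0.248). The r passed in 13 of 50 alternatives, 11 of them among the 40 that left out 1 array or the level of 1 follicle, such as that without the array of J980 and 8 (r = 0.785, adjusted permutation p = 0.0057). Follicles 33 and C22 were high for both genes and H893 was lowest for both. Without 33 and C22, the farthest from the median of NR4A1, r was 0.468. The residuals of the genes on the 23 shared arrays had r = 0.525, with at most 8 residual degrees of freedom behind them. This r was not tested, nor was the part of shared array error in the relation. The residual r of the other pairs below is likewise a description. Within the sides of the loop r was 0.838 in side 1 (exact permutation p = 0.00417, adjusted 0.0625) and 0.60 in side 2 (exact permutation p = 0.119, adjusted 0.297), over 8 follicles each. With levels centred within each side, an alternative chosen after seeing the data, r was 0.669 and passed (permutation p = 0.00174, adjusted 0.0261).

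The lowest r was that of JUN with GADD45B, at -0.539 (permutation p = 0.0352, adjusted 0.176), and its rho of -0.774 was the 1 that passed (permutation p = 5.8e-04, adjusted 0.0087). C35 and C13 were high for GADD45B and low for JUN, and J980 the reverse. C12 and H893, the lowest and the highest for JUN, were near the mean for GADD45B (0.15 ± 0.17 and -0.11 ± 0.18). The JUN level of H893 rested on 1 array. Follicles 31 and 8, next above J980 for GADD45B (-0.38 and -0.29), were near the mean for JUN (-0.0021 and -0.02). Without H893 and C12, the farthest from the median of JUN, r was -0.641, and without J980 it was -0.521. Residuals on 21 arrays had r = 0.103. Within sides r was -0.541 in side 1 (exact permutation p = 0.163, adjusted 0.814) and -0.915 in side 2 (exact permutation p = 0.00332, adjusted 0.0499), and centred within sides it was -0.551 (permutation p = 0.00381, adjusted 0.0286). The rho did not pass with either feature of GADD45B alone, at -0.603 for 5_6_16 (permutation p = 0.0154, adjusted 0.192) and -0.450 for 32_2_2 (permutation p = 0.0811, adjusted 0.609). Without a dye term r was 0.063, with the term dropped for all genes at once.

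The other 13 pairs had r from -0.332 to 0.565, and their smallest adjusted p was 0.109 for r and 0.409 for rho. The largest of these was TNFAIP6 with GADD45B, both lowest in J980, named here after its values were seen. Its r was 0.565 (permutation p = 0.0145, adjusted 0.109) and 0.391 without J980 and 861, and the residuals on 24 arrays had r = 0.513. The sign of r was the same in both sides of the loop for 8 of the 15 pairs.

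**Figure D5:**
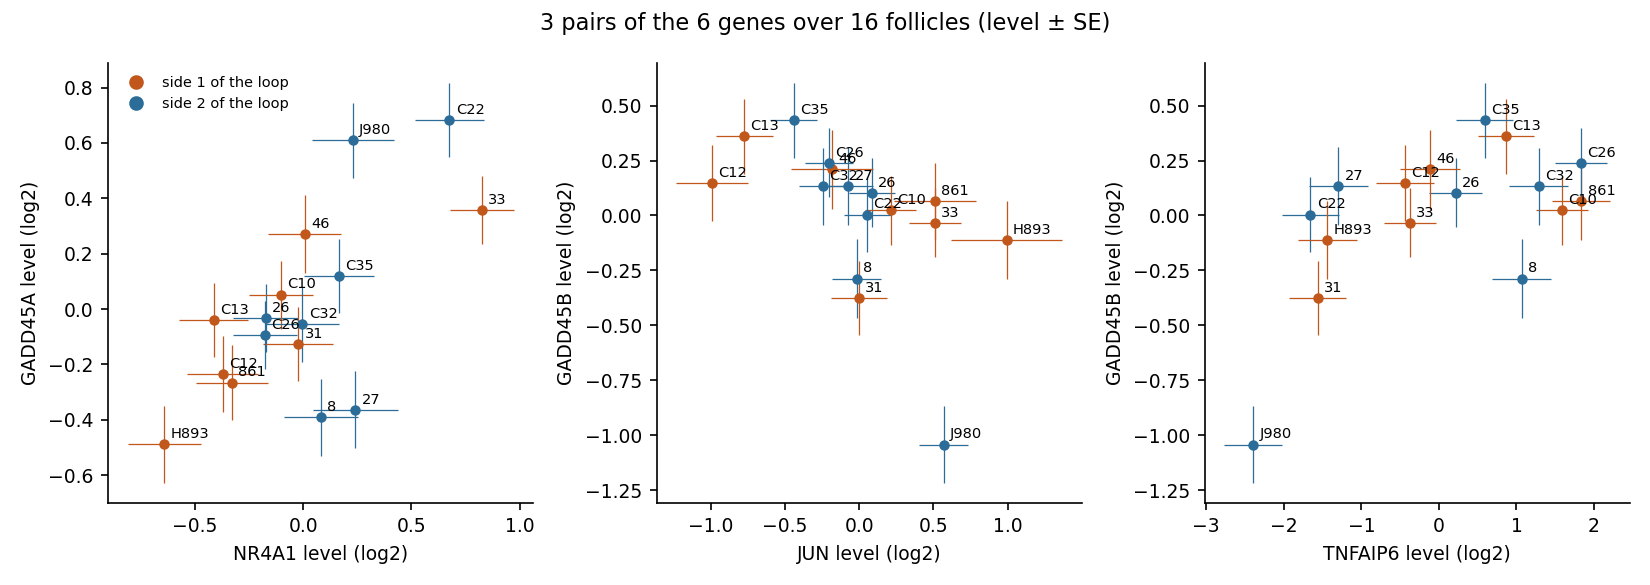
Levels of 3 pairs of genes in the 16 follicles (log2, relative to the mean of 16; bars are SE, colours the 2 sides of the loop). NR4A1 and GADD45A have r = 0.679, JUN and GADD45B have r = -0.539, and TNFAIP6 and GADD45B have r = 0.565 with J980 at the low end of both.

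Follicle J980 recurred at the ends of the orders. It was lowest for TNFAIP6 and GADD45B and highest for CITED2, and of the genes that passed 39.7% were lowest and 8.58% highest there, shares that would trade places if the ratios ran the other way. Of the granulosa markers 13 of 16 listed were measured and 7 passed (53.8%, against 11.8% of all genes tested). Their mean level ran from 0.23 in C32 to -0.50 in J980. Theca markers (6 of 9 passed, 66.7%) had their lowest mean in 31 (-0.31). Leukocyte markers (6 of 21, 28.6%) had their highest in C26 (0.33), and endothelial markers (1 of 10, 10%) likewise (0.22). Stroma and smooth muscle markers (3 of 12, 25%), luteal markers (4 of 5, 80%) and erythrocyte markers (1 of 4, 25%) had their lowest mean in J980. These means were -0.32, -0.33 and -0.16. Of 2 oocyte markers 1 passed. The median r of the granulosa markers was 0.18 with TNFAIP6 and 0.21 with GADD45B, and 0.06 and 0.04 without J980. That of the leukocyte markers was 0.26 with TNFAIP6 and 0.30 with CITED2, and 0.29 and 0.34 without J980. That of the stroma and smooth muscle markers was 0.40 with GADD45B, and 0.19 without J980. Over the 9 marker lists the median r with NR4A1 ran from -0.17 for theca markers to 0.22 for stroma and smooth muscle markers. Without J980 these 2 lists had -0.11 and 0.33. None of the 9 lists had its highest or lowest mean in 33 or C22, the highest follicles for NR4A1. Leukocyte markers had their lowest mean in H893 (-0.20), the lowest follicle for both NR4A1 and GADD45A. For GADD45A the highest were C22 and J980, and 5 of the 9 lists had their lowest mean in J980. The part of the mix of cells in these levels was not tested.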

How the data were processed

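The members and gene lists (18 lists, 367 genes, 239 of them measured) were chosen with earlier results of these data known. Per the labels, spots were quantified with the program GenePix Pro (4.0.1.12); the sources used here do not say how background and dyes were corrected. The authors' deposited values are log ratios of the channels, taken as log2. Base 10 is unlikely, since the largest absolute value was 6.32 and raw 16-bit intensities allow 4.82, though corrected intensities are not bound by that limit. Each array held 16094 to 17028 values, signal over background is unknown, and unused value columns numbered 0.

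Arrays were first centred on their medians. Features on at least 20 of 24 arrays were averaged per symbol and fitted with a follicle effect (1 for Cy5, -1 for Cy3) and a common dye term, with 8 residual degrees of freedom where no value was missing. The limma package (3.58.1, R 4.3.3) moderated the variances. Correlations used 100000 permutations (all 40320 orders within a side), which take levels as exchangeable although their errors are linked through the loop. Named besides the 6 genes were the 3 genes of highest r and the 1 of lowest r with each, among genes that passed, the 3 of smallest p in each pathway list, and the pairs of highest and lowest r. Other genes, named as the rest of a short count or for a level beside these, were chosen after their values were seen. Figures used matplotlib 3.10.9 in Python 3.11.15. No coordinates or sequences are given.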

Additional observations from a re-analysis of the deposited data

How the results depend on the processing

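Alternatives changed the centring, the scale of arrays, the minimum of arrays, the features per gene, dye term, moderation and the arrays or follicles included. The number of the 6 genes that passed was 3 without moderation, 4 without the dye term, 4 of 4 fitted with features on all arrays, and 4 to 6 when 1 array was left out. Member features that passed numbered 5 to 7 when 1 array was left out. The count over all genes was 1061, against 608 without the dye term, 589 without moderation, 673 without J980 and 681 to 1172 without 1 array (681 without the array of 33 and C13, 688 without that of 31 and C10). Features numbered 1994, against 1245 without the dye term and 1190 without moderation. Pairs that passed by r numbered 0, against 1 with arrays on one scale, 1 by rho, 2 centred within sides, and 0 to 9 when 1 array or the level of 1 follicle was left out. The 9 came without the array of C10 and 26, which joins the sides, and 2 came without the array of J980 and 8 or the level of follicle 8. The r of NR4A1 with GADD45A ranged from 0.463 to 0.785 over these, and that of JUN with GADD45B from -0.662 to -0.392, and the JUN pair reversed to 0.063 without the dye term. The cause of these shifts was not tested. JUN could not be fitted without the arrays of 861 and C10 or of H893 and 861. No paired analysis was possible because the labels number no replicates, while every fit compares follicles within arrays.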
